A study of Mus musculus with 8 samples.

Results

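Fas, the BAFF receptor and related members of the tumor necrosis factor (TNF) receptor family were examined in B cells on their way into the germinal center (GC). The set has 10 genes, picked by symbol from the 24259 gene rows of the count table, and all 10 were found. They are 7 receptors (Fas, Tnfrsf13b, Tnfrsf13c, Tnfrsf1a, Tnfrsf1b, Ltbr and Cd27) and 3 proteins that act directly below Fas (Fadd, Casp8 and Cflar). Of the 10, 9 had enough reads to be tested and Ltbr did not.

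The sorted cells bound the hapten NP, carried B220 and had little surface IgD, and came from the draining lymph nodes of SAP-deficient C57BL/6 recipients, collected at day 3 after NP-OVA was given with LPS in alum. The HET group (4 libraries) had been helped by transferred OT-II T cells of the genotype CD4-Cre x Bcl6 fl/+, in which 1 Bcl6 allele is floxed, and the WT group (4 libraries) by OT-II T cells with CD4-Cre alone. Both groups therefore carried the T cell-directed Cre transgene in the helper cells. OT-II cells bear a T cell receptor for an ovalbumin peptide, and recipients without the adaptor SAP have no effective follicular help of their own. In both groups the recipients were CD45.1. Cells of the recipients of a group were pooled and sorted into 4 repeats of about 200 cells, so that p-values measure the spread between repeats of 1 pool, and pool and T cell genotype cannot be told apart. Bcl6 was deleted in the helper T cells and not in the B cells sequenced, so these libraries hold no check of the deletion. In bulk samples, fewer cells of a type and less RNA per cell cannot be told apart.

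TNF receptors bind trimeric ligands and pass the signal on through adaptor proteins. Receptors with a death domain, such as Fas and TNFR1 (Tnfrsf1a), recruit adaptors such as FADD, which brings in caspase-8. FLIP (Cflar), a relative of caspase-8 without protease activity, limits its activation. The other receptors bind TRAF adaptors and switch on NF-κB. In B cells, BAFF receptor (Tnfrsf13c) keeps mature cells alive in response to BAFF, TACI (Tnfrsf13b) binds BAFF and APRIL, and Fas is low on resting cells and high on GC B cells, where it is a standard surface marker.

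Total counts ranged from 6652386 to 12559189 per library, and 3 counts corresponded to 0.241 to 0.455 CPM (the usual library-size scale for read counts, here with TMM-scaled library sizes). All 12 B cell markers examined were tested, and Cd79a and Ms4a1 were abundant in every library (at least 3209 and 1430 CPM). Ighd was also present, at 1377 to 2049 CPM. T cell markers summed to 555 to 906 CPM in HET and 477 to 768 CPM in WT, with 14 of 15 tested markers at a higher mean in HET and none called by edgeR or DESeq2 or at an unadjusted p under 0.05. Cd4 had reads in 3 of the 8 libraries. NK cell markers summed to 58.1 to 202 CPM in HET and 39.4 to 104 CPM in WT, and 1 of them, Eomes, was called by DESeq2 (10.4 and 2.32 CPM on average, adjusted p = 0.0188). DESeq2 called 0.687% of all genes. Myeloid markers summed to 64.3 to 213 CPM in HET and 38.0 to 450 CPM in WT, where WT replicate 2 had 399 CPM of Lyz2. The same list held Flt3, higher in HET without overlap (20.4 and 7.94 CPM on average) and called by DESeq2 (adjusted p = 0.0147) but not by edgeR (adjusted p = 0.280), and Siglech, at averages of 57.6 and 11.2 CPM with overlapping groups.

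The stretches upstream of Fas and Tnfrsf13c are shown because Fas was the member whose groups did not overlap and Tnfrsf13c the member with the highest level. Each is the 250 bases before the RefSeq start site on GRCm38.p6, 5′ to 3′ on the gene's strand. Capitals mark matches to a loose κB-like motif (GGG, any 5 bases, then CC). This motif is less strict than the κB consensus, and a match need not be a κB site. The Fas stretch is chr19:34290409-34290658 on the plus strand. The Tnfrsf13c stretch is chr15:82224381-82224630 on the minus strand.
Fas: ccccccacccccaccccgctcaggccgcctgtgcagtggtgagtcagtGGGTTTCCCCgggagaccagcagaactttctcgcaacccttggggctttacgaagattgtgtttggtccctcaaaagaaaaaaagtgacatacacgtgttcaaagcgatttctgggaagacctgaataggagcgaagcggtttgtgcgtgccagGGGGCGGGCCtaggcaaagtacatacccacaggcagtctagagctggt
Tnfrsf13c: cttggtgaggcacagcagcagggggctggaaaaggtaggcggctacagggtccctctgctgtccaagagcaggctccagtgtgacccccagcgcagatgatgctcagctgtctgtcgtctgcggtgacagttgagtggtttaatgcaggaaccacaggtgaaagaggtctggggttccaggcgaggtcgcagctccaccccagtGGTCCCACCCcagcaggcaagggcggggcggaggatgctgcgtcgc
The motif was searched on both strands, with overlapping matches allowed. Fas had 2 matches, starting 202 and 48 bases before the start site, and Tnfrsf13c had 1, starting 46 bases before it. At least 1 match was present upstream of 7 of the 10 members, all of them receptors, and in 45.8% of 32851 promoters of the same length. No factor binding was measured here.

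To place the members among the receptors of these cells, levels were compared per length. The values were counts divided by the merged exon length of each gene in GENCODE M21 and rescaled to the same sum in every library, called exonic TPM here. This scale was chosen after the data were seen, because the TPM values in the deposited table follow genomic span, introns included, more closely than exon length. The length implied by count over TPM lay within 1.5 times the genomic span for 78.1% of 23530 genes and within 1.5 times the exon length for 23.3%, after each was scaled to the same median. The deposited TPM of Casp8, a gene with long introns, averaged 6.23 against 74.6 exonic TPM.

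BAFF receptor and TACI stood above the other receptors compared. Tnfrsf13c averaged 535 ± 82.4 exonic TPM over the HET libraries and 549 ± 30.1 over the WT libraries (SD, n = 4 each). Tnfrsf13b averaged 217 ± 16.8 exonic TPM over the HET libraries and 241 ± 37.2 over the WT libraries (SD, n = 4 each). Over 25 TNF receptor genes compared, Tnfrsf13c made up 51.6% to 60.2% of the summed exonic TPM in a HET library and 52.2% to 56.6% in a WT library. Tnfrsf13b made up 19.5% to 25.5% in HET and 19.6% to 26.6% in WT. Cd40 and then the costimulatory receptor gene Tnfrsf18 followed, with means over the 8 libraries of 60.8 and 29.1 exonic TPM. These shares and ranks depend on the length scale. On the deposited TPM, Tnfrsf13c made up 78.1% to 83.2% in HET and 78.8% to 82.8% in WT, and Tnfrsf13b 5.95% to 8.51% in HET and 6.08% to 8.88% in WT. Tnfrsf18 then ranked above Cd40, and Fas was at rank 15 of the 25 instead of rank 8.

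The remaining receptors of the set were far lower. Cd27 averaged 17.6 ± 9.66 exonic TPM (SD over 8 libraries), Fas 11.1 ± 4.78, Tnfrsf1b 10.9 ± 4.48, Tnfrsf1a 2.83 ± 1.85 and Ltbr 0.374 ± 0.605. Among the signaling genes, Casp8 averaged 74.6 ± 15.8, Cflar 11.6 ± 1.20 and Fadd 10.1 ± 1.42. Tnfrsf13c was above Tnfrsf13b, Tnfrsf13b above Casp8, Casp8 above Cd27 and Fadd above Tnfrsf1a in all 8 libraries, with ranges that did not overlap. The 5 genes from Cd27 through Cflar, Fas and Tnfrsf1b to Fadd had overlapping ranges between neighbours and cannot be ranked. Cflar has a merged exon length of 12669 bases, set by all of its annotated transcripts.

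**Figure D1:**
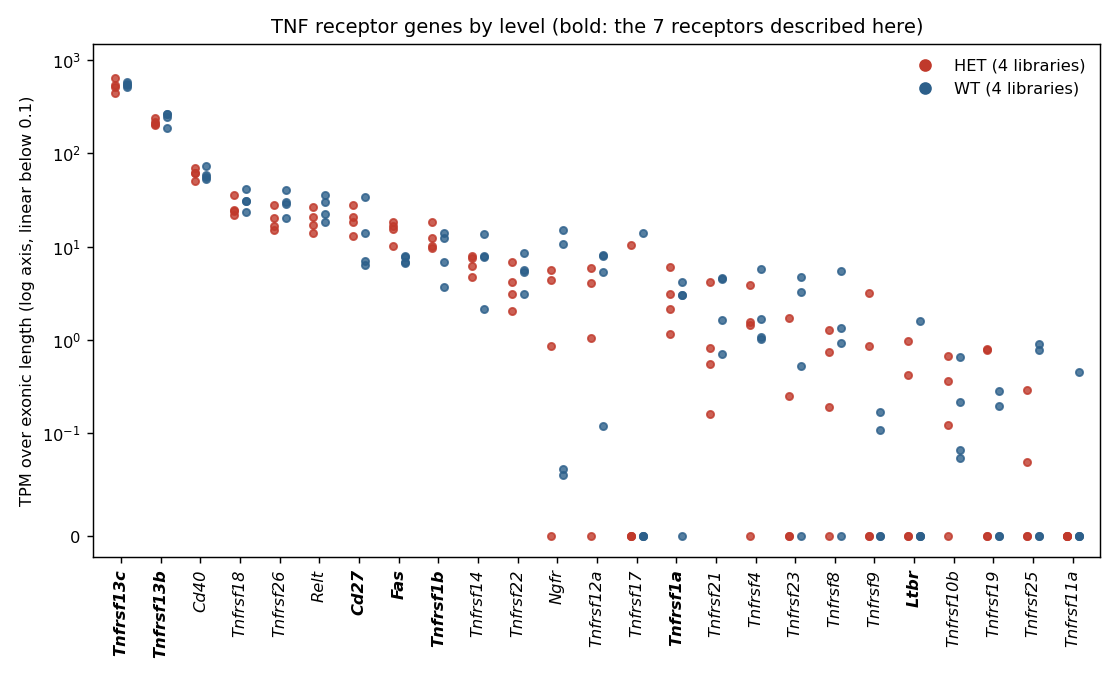
Exonic TPM (log axis, linear below 0.1) of 25 TNF receptor genes, ordered by mean over 8 libraries, with 1 point per library and HET and WT side by side. Tnfrsf13c and Tnfrsf13b lie above all other receptors in every library, and Fas, at a mean of 11.1, is at rank 8.

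Fas had a 2.11-fold higher level in the libraries of the HET group, with no overlap between groups, but it was not called over all genes. Fas encodes the death receptor for Fas ligand (chromosome 19, 34290666 to 34327772 on GRCm38, plus strand). It was present at 10.1, 15.7, 14.4 and 17.1 CPM in HET replicates 1 to 4, and at 7.51, 6.20, 6.18 and 7.20 CPM in WT replicates 1 to 4. Every HET library lay above every WT library, and HET replicate 1, the lowest of its group, was closest to WT. These values rest on 96 to 126 reads per HET library and 49 to 79 reads per WT library. This gave a log2 fold change of 1.08 (SE 0.32, 95% interval 0.39 to 1.77). In edgeR's quasi-likelihood test the unadjusted p was 0.00486 and the adjusted p over 12744 genes was 0.484. In DESeq2 the adjusted p was 0.0578.

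No member passed an adjusted p of 0.05 in edgeR, where 0.0235% of all genes tested passed, and none passed in DESeq2, where 0.687% of genes passed. At an unadjusted p under 0.05, 1 of the 9 tested members passed in edgeR, against 7.22% of all genes tested (3.34% higher and 3.88% lower in HET). The groups did not overlap for 1 of 9 members, against 4.61% of all genes tested in either direction, with 1.99% higher and 2.62% lower in HET. The median log2 fold change was 0.05 over the 9 members and -0.0014 over all genes tested. Members other than Fas were split, with 4 higher and 4 lower by mean.

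**Figure D2:**
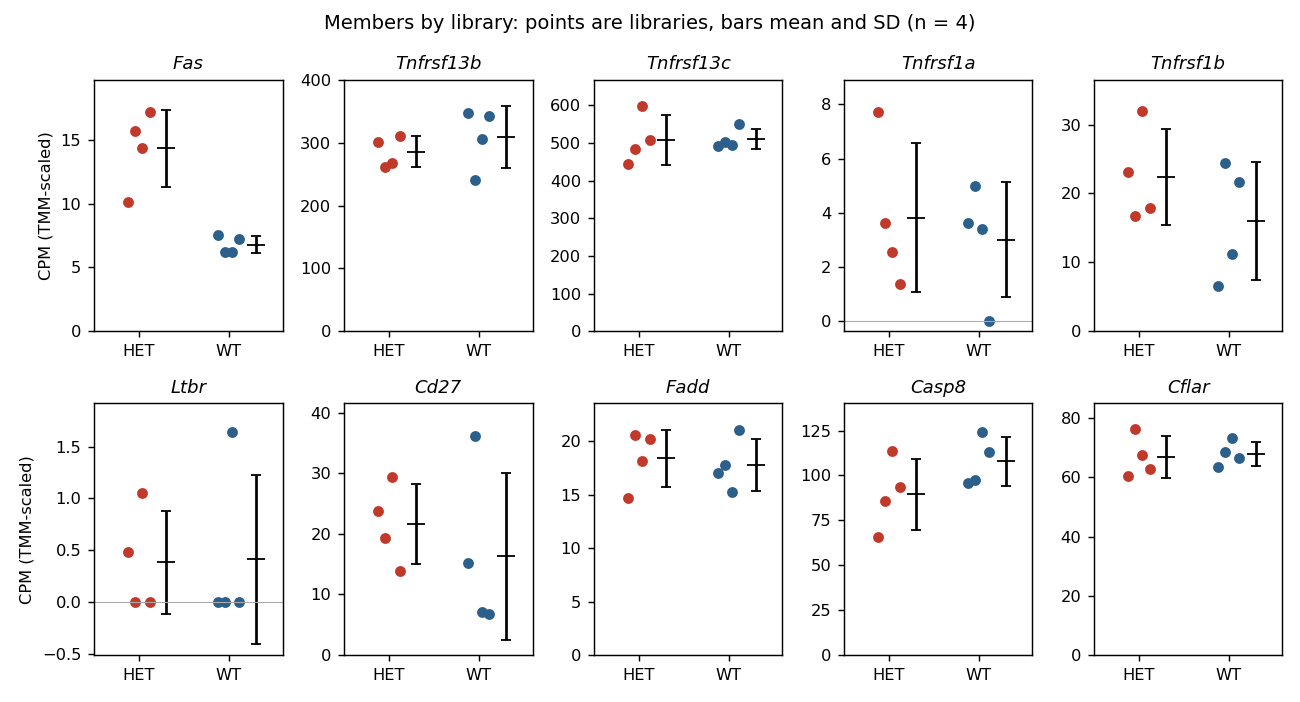
TMM-scaled CPM of the 10 members, with 1 point per library and the mean and SD of 4 libraries as a bar, each panel on its own linear axis. For Fas alone all HET points lie above all WT points, between 10.1 and 17.1 CPM against 6.18 to 7.51 CPM.

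The spread of Fas between repeats was larger in HET than in WT, a difference that was not tested. In WT the variance between repeats was 0.655 times that expected from counting error alone, and in HET it was 6.59 times. Among members, Cd27 in WT had the highest of these values (108 times), and Fas in WT the lowest. The biological coefficient of variation in edgeR was 0.344 for Fas, close to the median of 0.313 over all genes tested.

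The genes whose log2 CPM followed Fas most closely over the 8 libraries, of 8791 compared, were Hmgn2, Psmb5, Neurl3, Gm11100 and Ssbp1, with Pearson r between 0.932 and 0.952. Hmgn2 encodes a nucleosome-binding protein and Psmb5 a proteasome subunit. The 8 libraries share 2 pools, and any gene that differs between groups scores high by this measure. All 5 had a higher mean in HET, for example 374 against 264 CPM for Hmgn2.

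Germinal center markers were read beside Fas, since Fas is used to define these cells at later times. Of 10 markers, 7 were tested, 6 with a higher mean in HET, and 0 were called in edgeR or DESeq2. At an unadjusted p under 0.05 in edgeR, 3 were higher (S1pr2 and Nuggc among them) and 1 was lower (Bcl6). Over all genes tested, 3.34% were higher and 3.88% lower at that p, and 6356 of 12744 had a higher mean in HET. Of the 12 B cell markers, 11 had a lower mean in HET, 8 of them at an unadjusted p under 0.05 in edgeR and 4 without overlap. Of all genes tested, 3.88% were lower at that p and 2.62% were lower without overlap. DESeq2 called 1 of the 12, Cd22 (725 and 937 CPM on average, adjusted p = 0.0159), against 0.687% of all genes, and edgeR called 0. Means were also higher in HET for 14 of 15 tested T cell markers and 7 of 7 tested NK cell markers. The part of germinal center, B, T, NK or myeloid cell RNA in the Fas values was not tested.

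The BAFF receptor gene showed no difference beyond its spread. Tnfrsf13c (chromosome 15, 82221743 to 82224369, minus strand) was present at 443, 483, 599 and 507 CPM in HET replicates 1 to 4 and at 491, 503, 495 and 551 CPM in WT replicates 1 to 4. The HET libraries spanned the whole WT range. HET over WT, its log2 fold change was -0.0067 with a 95% interval of -0.21 to 0.20 (edgeR adjusted p = 0.990). Expression of Tnfrsf13c was among the steadiest of the genes tested, with a coefficient of variation of 0.142, and 3.55% of genes tested were steadier. This rank does not take level into account. The variance of Tnfrsf13c between repeats was 72.7 times that expected from counting error in HET and 14.5 times in WT.

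TACI likewise showed no difference beyond its spread. Tnfrsf13b (chromosome 11, 61126755 to 61149372, plus strand) was present at 302, 261, 269 and 312 CPM in HET replicates 1 to 4. In WT replicates 1 to 4 it was present at 347, 241, 306 and 343 CPM. WT replicate 2 was the lowest of all libraries and WT replicate 1 the highest, so that WT enclosed HET. This amounted to a log2 fold change of -0.11 with a 95% interval of -0.37 to 0.14 (edgeR adjusted p = 0.889). Another receptor of this branch, BCMA (Tnfrsf17), which marks plasma cells, had reads in 1 HET and 1 WT library, at 4.10 and 5.23 CPM. HET replicate 1, which held 1576 CPM of the plasmablast gene Jchain against at most 97.1 CPM elsewhere, was that HET library, and its TACI value lay within the range of the other libraries.

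The ligands of these receptors were read from a list of 8 genes. BAFF (Tnfsf13b) had 7 reads in HET replicate 4, 7 reads in WT replicate 3 and none in the other libraries. APRIL (Tnfsf13) was not among the gene symbols counted and could not be read. Fasl had 5 and 14 reads in WT replicates 2 and 3 and none elsewhere. By contrast, Ltb, which encodes the membrane anchor of the lymphotoxin trimer, averaged 741 ± 48.5 exonic TPM over the HET libraries and 711 ± 39.5 over the WT libraries (SD, n = 4 each), above every receptor of the set.

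Lta, the other lymphotoxin chain, was present at 47.4, 76.9, 51.5 and 32.6 CPM in HET replicates 1 to 4 and at 55.1, 31.3, 18.8 and 22.8 CPM in WT replicates 1 to 4. WT replicate 1 lay inside the HET range and the other WT libraries below it. HET over WT gave a log2 fold change of 0.70 (SE 0.33, edgeR unadjusted p = 0.0504, adjusted p = 0.693). Tnf averaged 15.6 ± 4.27 CPM over the HET libraries and 14.8 ± 7.68 over the WT libraries (SD, n = 4 each, edgeR adjusted p = 0.980). Cd70, the ligand of CD27, had 27 and 6 reads in HET replicates 1 and 2 and none in the other 6 libraries. Tnfsf14 (LIGHT) had 78 reads in HET replicate 1 and at most 8 in any other library. Of the 8 ligands, 3 were tested and 0 were called by edgeR or DESeq2, and none of the 3 had an unadjusted p under 0.05.

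The receptors for lymphotoxin and TNF were low. Ltbr (chromosome 6, 125306571 to 125313885, minus strand), the receptor of the membrane lymphotoxin trimer and typical of stromal and myeloid cells, had 6 and 7 reads in HET replicates 1 and 3, 13 in WT replicate 3 and none in the other 5 libraries. A count of 0 allows up to 0.455 CPM in the shallowest of these libraries, counting error only. Its ligand chain Ltb was thus abundant in the same libraries in which Ltbr had at most 13 reads.

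Tnfrsf1a (TNFR1; chromosome 6, 125349362 to 125362484, plus strand), a death domain receptor for TNF, was present at 7.72, 3.63, 2.55 and 1.36 CPM in HET replicates 1 to 4. In WT replicates 1 to 3 it was present at 3.61, 4.98 and 3.41 CPM, and WT replicate 4 had no read. Levels within each group differed more than the group means did, and the log2 fold change of 0.36 had a 95% interval of -1.58 to 2.30 (edgeR adjusted p = 0.961). Its coefficient of variation of 0.853 was higher than that of 94.0% of genes tested.

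Tnfrsf1b (TNFR2; chromosome 4, 145213463 to 145246870, minus strand), which has no death domain, was present at 23.1, 16.7, 31.9 and 17.9 CPM in HET and at 6.56, 24.5, 11.2 and 21.7 CPM in WT. HET replicate 3 was the highest and WT replicates 1 and 3 were the lowest, with the rest mixed. Their log2 fold change was 0.48 with a 95% interval of -0.34 to 1.31 (edgeR adjusted p = 0.840). The count ratio of Tnfrsf1a to Tnfrsf1b was lowest in WT replicate 4, where Tnfrsf1a had no read.

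CD27, a costimulatory receptor of T cells and activated B cells, varied most between repeats among the well-covered members. Cd27 (chromosome 6, 125232622 to 125237010, minus strand) was present at 23.8, 19.3, 29.4 and 13.8 CPM in HET and at 15.2, 36.1, 7.07 and 6.68 CPM in WT. WT replicate 2 exceeded every HET library, whereas WT replicates 3 and 4 lay below all of them. Across all libraries it had a log2 fold change of 0.41 with a 95% interval of -0.62 to 1.43 (edgeR adjusted p = 0.901), and of 1.16 without WT replicate 2 (edgeR adjusted p = 0.454). Without WT replicate 3 or 4 it was 0.17 or 0.15 (edgeR adjusted p = 0.988 and 0.983). WT replicate 2 was also the WT library with the most Trac (49.7 CPM) and Lyz2, while WT replicate 3 had 5.17 CPM of Trac. The part of T cell or myeloid RNA in the Cd27 values was not tested. The exons of Cd27 overlap Vamp1 on the opposite strand and Mir8113, and the strand setting of the counting was not stated.

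Tnfrsf1a, Ltbr and Cd27 lie together on chromosome 6, with 35476 bases between Tnfrsf1a and Ltbr and 69560 bases between Ltbr and Cd27. They did not share a level, with means over the 8 libraries of 2.83, 0.374 and 17.6 exonic TPM.

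The proteins below Fas were compared next. Fadd (chromosome 7, 144577318 to 144582463, minus strand), the adaptor that joins Fas to caspase-8, was present at 14.7, 20.6, 18.1 and 20.2 CPM in HET and at 17.0, 17.8, 15.3 and 21.1 CPM in WT. The groups covered the same range, and the log2 fold change was 0.05 with a 95% interval of -0.50 to 0.59 (edgeR adjusted p = 0.980). The annotated antisense gene Faddos overlaps the exons of Fadd, and reads of either could be counted together.

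Casp8 (chromosome 1, 58795374 to 58847503, plus strand), the initiator caspase of this pathway, was present at 65.4, 85.8, 113 and 93.4 CPM in HET and at 95.9, 97.7, 124 and 113 CPM in WT. Of the 4 HET libraries, 3 lay below every WT library and HET replicate 3 lay within the WT range. Casp8 had a log2 fold change of -0.27 with a 95% interval of -0.62 to 0.08 (edgeR unadjusted p = 0.121, adjusted p = 0.781). It ranged from -0.40 without HET replicate 3 to -0.14 without HET replicate 1.

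Cflar (chromosome 1, 58711508 to 58758884, plus strand) lies 36489 bases from Casp8 with no protein-coding gene between them. It was present at 60.6, 76.4, 67.6 and 62.9 CPM in HET and at 63.5, 68.5, 73.3 and 66.4 CPM in WT. Every library lay within 1.26-fold of every other. Cflar had a log2 fold change of -0.02 with a 95% interval of -0.32 to 0.28 (edgeR adjusted p = 0.981).

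**Figure D3:**
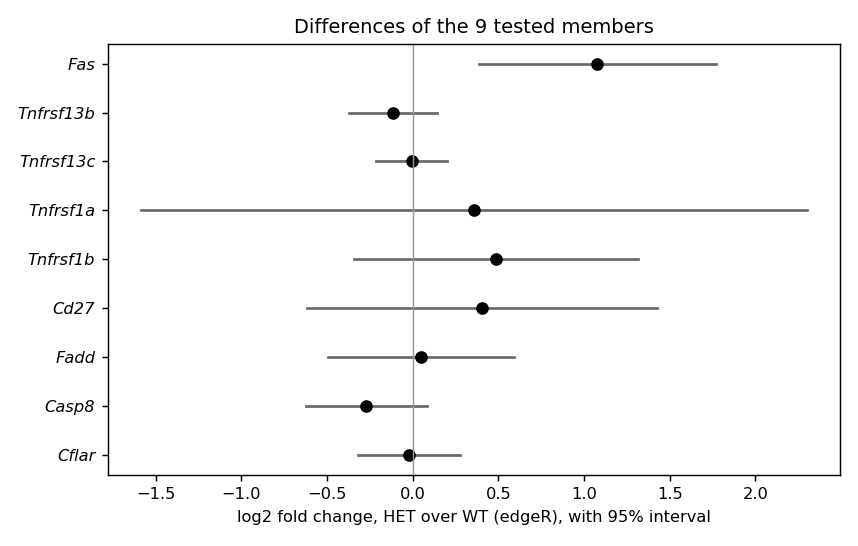
Log2 fold change (HET over WT, edgeR) of the 9 tested members as points, with 95% intervals as lines and the vertical line at no change. The interval of Fas, 0.39 to 1.77, is the only one that leaves out 0.

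Ratios within a library need no scaling between libraries. The count ratio of Fas to Cflar was 0.167, 0.205, 0.213 and 0.272 in HET replicates 1 to 4 and 0.118, 0.0905, 0.0843 and 0.108 in WT replicates 1 to 4. All HET libraries lay above all WT libraries, by 1.08 on the log2 scale between group means (2.11-fold). The two-sided exact permutation p was 0.0286, the smallest that 70 arrangements allow, and 0.114 after adjustment over the 4 ratios examined. Cflar hardly differed between groups (edgeR log2 fold change -0.022), so this ratio shows the Fas values again. Its p-value is not separate from the Fas difference.

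The other 3 ratios overlapped between groups. Casp8 over Cflar was 1.08, 1.12, 1.68 and 1.48 in HET and 1.51, 1.43, 1.70 and 1.71 in WT (two-sided exact permutation p = 0.2, adjusted p = 0.4). HET replicates 1 and 2 had the lowest ratios of Casp8 to Cflar reads, which are not corrected for length, and protein was not measured. Tnfrsf13b over Tnfrsf13c ranged from 0.448 to 0.683 in HET and from 0.479 to 0.707 in WT (two-sided exact permutation p = 0.6, adjusted p = 0.8). Tnfrsf1a over Tnfrsf1b ranged from 0.0763 to 0.334 in HET and from 0 to 0.551 in WT (two-sided exact permutation p = 0.886, adjusted p = 0.886). Its group difference was 0.63 on the log2 scale and -1.14 without WT replicate 4, the library with no Tnfrsf1a read, so that 1 library set its direction.

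**Figure D4:**
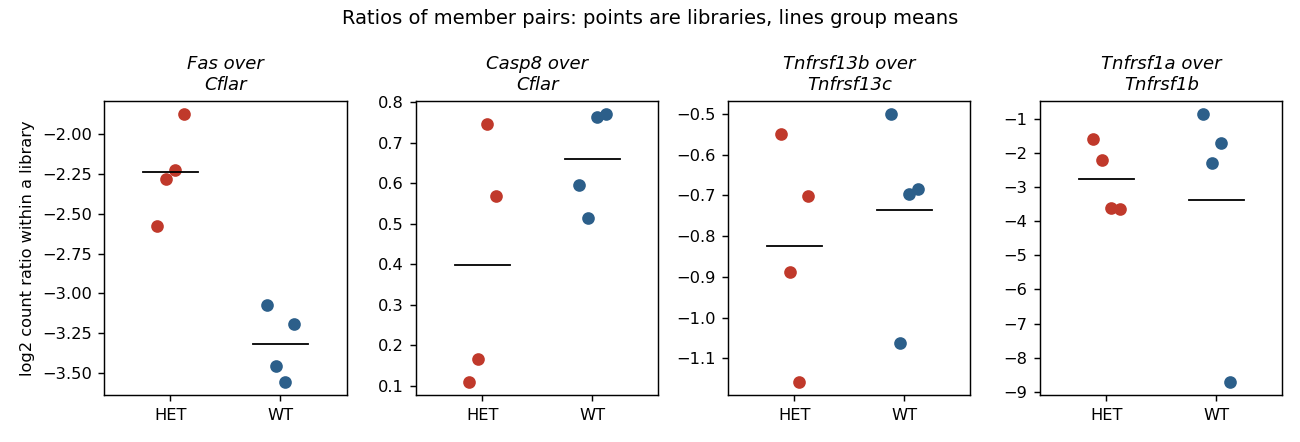
Log2 count ratio of 4 pairs of members within each library, with 0.5 added to both counts, as points and group means as lines. Fas over Cflar is higher in all 4 HET than in all 4 WT libraries, and the single low point of Tnfrsf1a over Tnfrsf1b is WT replicate 4, with no Tnfrsf1a read.

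Other genes of the pathway were read from 3 further lists, and 0 of their genes were called in edgeR. Of 21 other TNF receptors, 10 were tested, and 9 of these had a lower mean in HET, with a median log2 fold change of -0.49 over the list and -0.0014 over all genes tested. Over all genes tested, 6388 of 12744 had a lower mean in HET. The most negative values of the list came from genes with few or uneven reads. These were Tnfrsf8 (0 to 85 reads per library), Ngfr (0 to 227), Tnfrsf21 (4 to 92) and Tnfrsf12a (0 to 70). Cd40, with 646 to 1062 reads, had a log2 fold change of 0.06. None of the 10 had an unadjusted p under 0.05 in edgeR and none was called by DESeq2. The 3 with the lowest p were Tnfrsf26 (29.9 ± 8.46 CPM over the HET and 43.3 ± 11.3 over the WT libraries, SD, n = 4 each, log2 fold change -0.53, edgeR adjusted p = 0.705), Relt (log2 fold change -0.42, edgeR adjusted p = 0.776) and Tnfrsf8, which encodes CD30 (log2 fold change -1.67, edgeR adjusted p = 0.822). Tnfrsf8 was low, at 0.909 and 3.03 CPM on average over the HET and WT libraries, with reads in 6 of the 8 libraries. WT replicate 2 alone held 85 reads. With a library left out, the log2 fold change of Tnfrsf8 ranged from -2.56 to -0.298.

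Of 22 adaptors and kinases at TNF receptors, all 22 were tested, 10 higher and 12 lower by mean in HET, with a median log2 fold change of -0.09. At an unadjusted p under 0.05 in edgeR, 1 was higher and 1 was lower, against 3.34% and 3.88% of all genes tested. DESeq2 called 1 of the 22, Traf1, and 0.687% of all genes. The groups did not overlap for 1 gene higher and 1 gene lower in HET, against 1.99% and 2.62% of all genes tested. Traf1, an NF-κB target and adaptor of TNFR2 and CD40, averaged 108 ± 37.0 CPM over the HET libraries and 53.7 ± 15.4 over the WT libraries (SD, n = 4 each), and the groups did not overlap. Traf1 had a log2 fold change of 1.001 (SE 0.24), with an adjusted p of 0.277 in edgeR and 0.0159 in DESeq2. Birc2 (cIAP1, a ubiquitin ligase) was lower without overlap, averaging 39.4 ± 2.37 CPM over the HET libraries and 52.8 ± 9.14 over the WT libraries (SD, n = 4 each, log2 fold change -0.42, edgeR adjusted p = 0.625). Traf6 had a log2 fold change of -0.52 (edgeR adjusted p = 0.696).

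The death pathway list holds genes below caspase-8 and some that do not act there, such as Fcmr. Of its genes, 16 were in the table and 15 were tested, 9 higher and 6 lower by mean in HET. Their median log2 fold change was 0.04. None was called by edgeR or DESeq2. Bid and Cycs (higher) and Fcmr (lower) had an unadjusted edgeR p under 0.05, against 3.34% higher and 3.88% lower of all genes tested. The groups did not overlap for 1 of the 15, Bid, against 1.99% of all genes tested that were higher in HET without overlap. Bid, the protein that caspase-8 cleaves to engage mitochondria, averaged 122 ± 25.2 CPM over the HET libraries and 92.2 ± 8.96 over the WT libraries (SD, n = 4 each, no overlap, log2 fold change 0.41, SE 0.15, edgeR unadjusted p = 0.0173, adjusted p = 0.597). Cycs, which encodes cytochrome c, averaged 147 ± 23.3 CPM over the HET libraries and 111 ± 24.5 over the WT libraries (SD, n = 4 each, log2 fold change 0.41, edgeR adjusted p = 0.616). Fcmr, the Fc receptor for IgM, had a log2 fold change of -0.21 (edgeR adjusted p = 0.657).

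**Figure D5:**
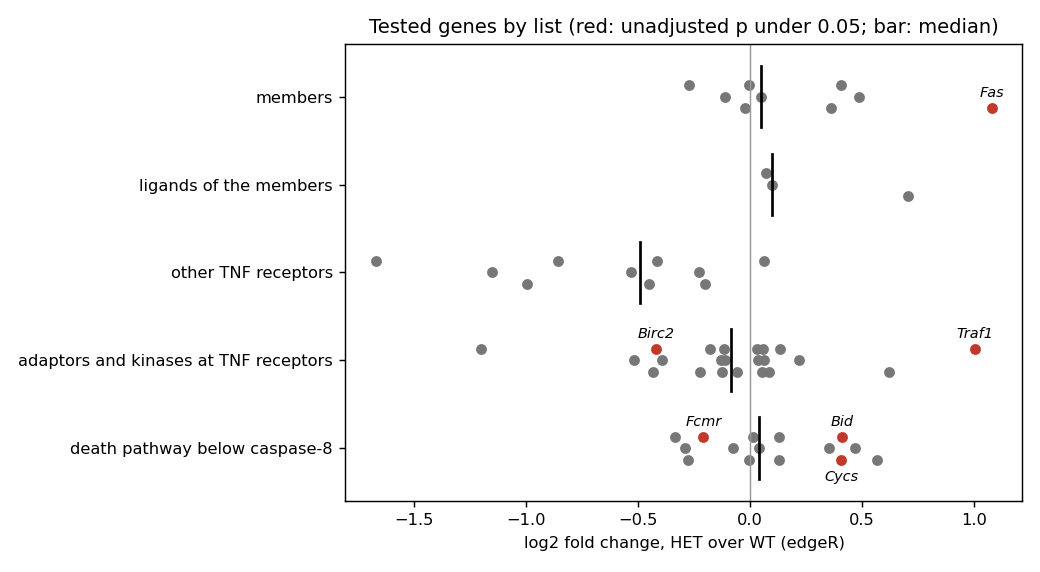
Log2 fold change (HET over WT, edgeR) of the tested genes of each list, with 1 point per gene, an unadjusted p under 0.05 in red and the list median as a bar. The members centre near 0 with Fas at 1.08, and the other TNF receptors lie mostly below 0 with a median of -0.49. The most negative points of the other TNF receptors are genes with few or uneven reads.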

How the data were processed

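Reads of 8 SMART-Seq2 libraries of about 200 cells each were checked with FastQC, aligned by the authors to GRCm38 with Hisat2 (2.2.1 per the submitters' processing notes), sorted with Samtools and assigned to genes with HTSeq-count. Which annotation release and strand setting were used, and how multiply aligned reads were treated, is not given in the sources used here. The authors deposited whole-number read counts (24259 symbols) and TPM values (24232 symbols), whose lengths follow genomic span.

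The main test was run on the counts in edgeR 4.0.16 (R 4.3.3): filterByExpr (12744 genes), TMM scaling, robust quasi-likelihood F-test of HET against WT with no covariate, and Benjamini-Hochberg adjustment over all genes with a threshold of 0.05. SEs are the fold change over the square root of F. The fit was tested on simulated data in which every gene had the same spread between repeats. That simulation did not cover the differences in spread between genes seen here. DESeq2 1.42.0, which the study used, and limma 3.58.1 were alternatives. SMART-Seq2 has no molecular identifiers, so limits on counts cover counting error only.

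Positions and exon lengths came from GENCODE M21 (23530 symbols matched) and promoters from RefSeq on GRCm38.p6 (10 of 10 members matched). Named genes were all members, all ligands and, of each other pathway list, the 3 tested genes with the lowest p and any gene called. Tnfrsf17, Cd40, Tnfrsf18, Ngfr, Tnfrsf21, Tnfrsf12a and the markers were named outside this rule, after their values were seen. The 5 genes most like Fas needed a mean log2 CPM of at least 3. The same search for Tnfrsf13c gave Tor1a, Arfgap2, Hmces, Gm20531 and Gm50251 (Pearson r 0.914 to 0.960 over 8 libraries). Members and lists were chosen with earlier results of these data known. Some listed genes are not reported here.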

Additional observations from a re-analysis of the deposited data

Results flagged for a closer look

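WT replicate 3 stood apart for Ltbr, with 1.64 CPM from 13 reads against 0 in the remaining WT libraries, by Dixon's criterion for 4 values. With the remaining WT libraries tied at 0, any nonzero value would have met it, so this flag says little. Of 28 sets of 4 values tried, this was the 1 that met it. Chance alone would nominally give about 1.4, a figure that does not take tied zeros into account.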

How the results depend on the processing

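No member was called by any of the 18 alternative fits at an adjusted p of 0.05, and 1 member passed an unadjusted p of 0.05 with all libraries. Fas was higher in HET in all 18, with adjusted p from 0.0578 (DESeq2) to 0.731 and a log2 fold change from 0.51 on log2(TPM + 1), where its low values are compressed by construction, to 1.22 without HET replicate 1. With each library left out in turn its unadjusted p ranged from 0.00302 to 0.0152 (edgeR). Over all genes 3 were called in edgeR, against 95 with DESeq2, 38 with no filter, 7 with a mean of at least 50 counts, 6 with limma-voom and quality weights, 1 on log2(TPM + 0.1) and 0 on log2(TPM + 1) by limma-trend, 8 at an adjusted p under 0.1 and 920 at an unadjusted p under 0.05. Leaving out a library gave 1 to 6 called genes, with 6 without WT replicate 1 and 1 without WT replicate 3 or without any single HET library. The cause of these differences was not tested. Of the pathway genes, 0 were called in edgeR and 1 (Traf1) in DESeq2.

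Members near no change turned sign. Fadd had a log2 fold change of -0.0020 on log2(TPM + 1) and -0.0031 on log2(TPM + 0.1), and -0.012 to 0.15 over the fits without a library. Over the same fits Tnfrsf13c ranged from -0.093 to 0.059, Tnfrsf1a from -0.24 to 0.72 and Cflar from -0.088 to 0.027. Tnfrsf1a fell below the filter of a mean of at least 50 counts and has no value there, and limma-voom with quality weights gave it 1.30 against 0.36 in edgeR. For Cd27 that tool gave 0.73 against 0.41. Among the ratios, Tnfrsf13b over Tnfrsf13c ranged from -0.20 to 0.022 with a library left out, turning sign without HET replicate 3, and Tnfrsf1a over Tnfrsf1b from -1.14 to 1.48, turning sign without WT replicate 4. Fas over Cflar and Casp8 over Cflar kept their direction under every alternative run, at 0.96 to 1.19 and -0.38 to -0.17 with a library left out.

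The replicate numbers did not pair the samples: deviations of same-numbered libraries correlated between -0.0541 and 0.00380, and no library correlated best with its own number. With the replicate block 0 genes were called over the table and 0 members, Fas had a log2 fold change of 1.06 (edgeR adjusted p = 0.675), and the Fas over Cflar difference of 1.08 had a sign-flip exact permutation p of 0.125, the smallest 4 pairs allow.

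With exon lengths in place of the lengths in the deposited TPM, an alternative chosen after seeing the data, mean levels moved from 1.08 to 11.1 TPM for Fas, from 73.4 to 229 for Tnfrsf13b, from 789 to 542 for Tnfrsf13c, from 2.10 to 10.9 for Tnfrsf1b, from 6.23 to 74.6 for Casp8 and from 10.1 to 11.6 for Cflar. Casp8 had rank 6 of the 10 members by deposited TPM and rank 3 by exonic TPM. Ltbr, Fasl and Tnfsf13b had no reads in most libraries, and the cause of these zeros was not tested.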
